A study of Homo sapiens with 6 samples.

Results

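The genes described here are 44 genes of the NRF2 pathway and of the enzymes that detoxify peroxides, superoxide, quinones and reactive carbonyls. They were chosen by symbol from general knowledge of the pathway, with earlier results of these data known, and all 44 are among the 19792 genes of the deposited comparison. RNA-seq was performed on BT-549 cells, a human triple-negative breast cancer line, that carried a tetracycline-inducible shRNA against WDR5 and had been selected with puromycin. The series holds 3 cultures treated with 0.1% DMSO as vehicle and 3 treated with 500 ng/ml doxycycline (DOX), which switches the shRNA on. The labels give no time of treatment, and the paper's supplement gives 7 days. All 6 cultures carried the same shRNA vector, so effects of DOX itself, of this hairpin on other transcripts and of lower WDR5 cannot be told apart. WDR5 is a core subunit of the COMPASS complexes, which methylate lysine 4 of histone H3.

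The file lists, for each gene, a normalized count averaged across the 6 cultures, the log2 ratio of DOX to vehicle with its standard error, and a p-value with its adjustment from DESeq2's Wald test. Values of single cultures were not analysed here. The spread between cultures therefore enters only through the standard errors, sequencing depth per culture is unknown, and a p-value covers only the spread between these cultures. A gene is called higher or lower below at an adjusted p under 0.05 over all genes, and intervals are 95% intervals. A group level is the normalized count that the mean over 6 libraries and the fold change imply for 3 vehicle and 3 DOX cultures. Such levels are not scaled for transcript length, and bulk RNA does not separate RNA per cell from the number of cells that express a gene. WDR5 (chromosome 9, 134135365 to 134159968 on GRCh38) stood at 2013 with vehicle and 273 with DOX, a log2 fold change of -2.88 with a standard error of 0.08. Markers matched the line in part. VIM, FN1, ZEB1, CDH2 and SPARC, genes of mesenchymal cells, had mean normalized counts from 4093 to 47782, whereas ESR1 and PGR, the estrogen and progesterone receptor genes, were under 1. ERBB2, low by definition in triple-negative cells at the protein level, was at 1221. Of the 5 mesenchymal genes CDH2 had the largest log2 fold change (0.85). VIM, FN1 and SPARC rose by less (0.25, 0.29 and 0.27), whereas ZEB1 was lower with DOX (-0.45). The epithelial genes CDH1, EPCAM, KRT8 and KRT19 lay between 1.30 and 59.6, and KRT18 was at 435 with a log2 fold change of 1.04. CDH1 was lower with DOX (log2 fold change -0.68), and EPCAM, KRT8 and KRT19 were not called. PTPRC, a gene of leukocytes, was at 44.7 with a log2 fold change of 0.83, and PECAM1 and ALB, of endothelium and liver, were both under 5. Whether such shifts in lineage genes played a part in the changes below was not tested.

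As background, NRF2 (encoded by NFE2L2) is a transcription factor that KEAP1 holds in the cytoplasm and passes to a CUL3 and RBX1 ubiquitin ligase for degradation. Oxidants and electrophiles modify KEAP1, NRF2 then accumulates, pairs with a small MAF protein and binds antioxidant response elements. BACH1 occupies many of the same elements as a repressor. The targets make glutathione, reduce thioredoxin, supply NADPH and remove quinones, heme and iron. NRF2 is controlled mainly through protein stability, which RNA-seq does not measure.

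Among these 44 genes, 5 of the 7 regulators fell in the DOX-treated cells, whereas most of the glutathione, thioredoxin and peroxiredoxin genes rose. Of the 44 genes, 24 were higher with DOX, 9 were lower and 11 were not called at an adjusted p under 0.05. The shares of members were 54.5% higher and 20.5% lower. Over all 15954 genes with an adjusted p, 24.3% were higher and 22.5% lower. Every member has a mean normalized count of at least 136, and among the 10815 genes with a count of at least 100 the shares were 33.4% higher and 27.9% lower. The median log2 fold change of the members was 0.16, beside 0.03 for those 10815 genes. PRDX1 alone rose past a log2 fold change of 1, where 1.15% of expressed genes did. TXNIP, GLO1 and MAFF fell past that size, where 1.79% of expressed genes did. A further 10 members rose by 0.5 to 1 on the log2 scale, and 13 rose by less than 0.5.

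**Figure D1:**
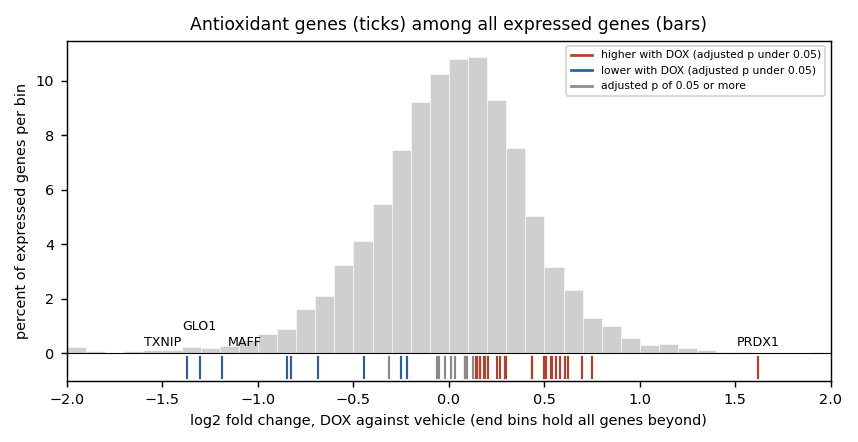
Share of the 10815 genes whose mean normalized count reached 100 in bins of log2 fold change (grey bars, percent), with the 44 antioxidant genes as ticks below the axis, coloured by call. The ticks lie mainly to the right of 0, with PRDX1 alone beyond 1 and TXNIP, GLO1 and MAFF beyond -1.

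NFE2L2 (chromosome 2, 177218667 to 177392756) stood at 5970 with vehicle and 3370 with DOX. Its level with DOX was 56.5% of vehicle (52.8% to 60.4%), with a log2 fold change of -0.82, a standard error of 0.05 and an adjusted p of 3.4e-60 (DESeq2). The DOX level was thus lower by more than the interval allows for error. NFE2L1, which encodes the related factor NRF1 of the proteasome response, fell to 73.5% of vehicle (68.2% to 79.1%). BACH1, the repressor (chromosome 21, 29194071 to 29630751), went from 6799 to 4225 and was left at 62.1% (57.5% to 67.2%). Its log2 fold change was -0.69 with a standard error of 0.06 (adjusted p = 1.2e-31, DESeq2).

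The small MAF proteins lack an activation domain and serve as partners of both NRF2 and BACH1. The 3 genes differed widely. MAFF (chromosome 22, 38200767 to 38216507) fell from 3186 to 1399, or 43.9% of vehicle (40.5% to 47.6%), with a log2 fold change of -1.19, a standard error of 0.06 and an adjusted p of 7.4e-88 (DESeq2). MAFG was left at 85.7% (77.7% to 94.7%). MAFK was not called, with a level of 96.4% (85.6% to 108%) and an adjusted p of 0.661 from DESeq2. The intervals of the 3 genes did not overlap between MAFF and the other two, while those of MAFG and MAFK did. KEAP1, the inhibitor (chromosome 19, 10486125 to 10503558), was the only regulator to rise. It went from 1281 to 1886, 147% of vehicle (134% to 162%), with a log2 fold change of 0.56, a standard error of 0.07 and an adjusted p of 6.8e-14 (DESeq2). In all, 5 of the 7 regulators were lower (71.4%), 1 was higher (14.3%) and 1 was not called. Among genes with a count of at least 100, 27.9% were lower and 33.4% higher.

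**Figure D2:**
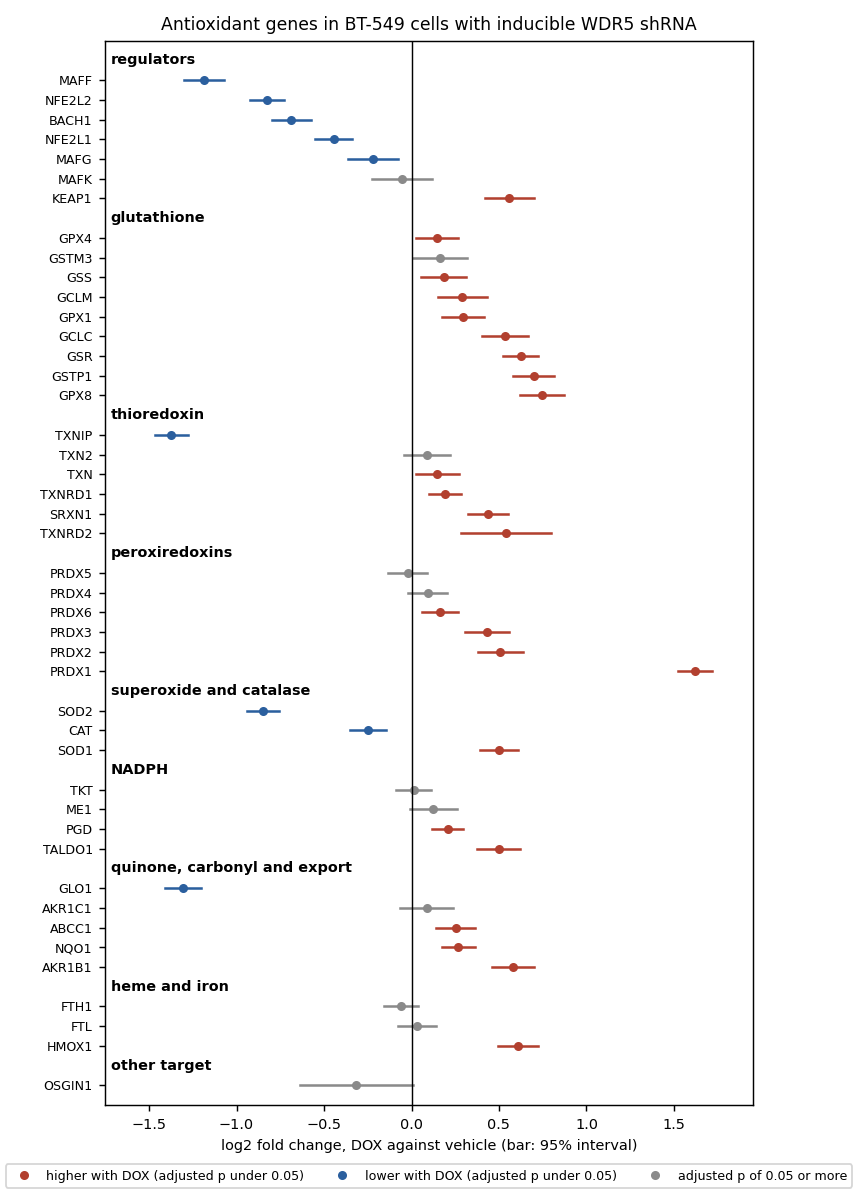
Log2 fold change, DOX over vehicle (points) with 95% intervals (bars) for the 44 genes, grouped by role and coloured by call. Within the regulators all but KEAP1 lie left of 0, whereas all 9 glutathione genes lie right of 0, and PRDX1 stands apart from the other 5 peroxiredoxins.

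RefSeq promoters on GRCh38.p14, each from 250 bases before to 50 bases after a transcription start, were read for every member with an entry. Sequence farther from a start was not searched, so a gene without a match may hold the motif elsewhere. Entries covered 34 of the 44 genes, with 51 promoters in all. PRDX1, PRDX6, HMOX1, SOD1, ABCC1, MAFK, FTH1, TXN2, GSS and GSR had none. The core of the antioxidant response element was searched as TGACNNNGC on both strands. It occurred in 8 of the 51 promoters (15.7%), beside 13.3% of all 35116 promoters and 14.5% of the promoters of the genes with a count of at least 100. The AP-1 element TGAGTCA, which overlaps the first motif wherever TGAC is followed by TCA and GC, was in 5 of the 51 promoters (9.80%), beside 4.95% of all and 3.22% of those of expressed genes. Of the 7 members with the first motif, 5 were higher, 1 was lower and 1 was not called. Of the 5 members with the second, 1 was higher, 2 were lower and 2 were not called. Each motif thus occurred in members of both directions, and whether either goes with direction was not tested. The windows below are shown because they set genes that rose and genes that fell side by side, and the capitals mark the matched letters, read 5′ to 3′ along the gene.
GSTP1, higher, chr11:67583726-67583774, + strand: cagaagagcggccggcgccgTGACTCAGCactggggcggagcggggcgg
GCLM, higher, chr1:93909436-93909484, - strand: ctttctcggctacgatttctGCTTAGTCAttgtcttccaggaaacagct
KEAP1, higher, chr19:10502774-10502822, - strand: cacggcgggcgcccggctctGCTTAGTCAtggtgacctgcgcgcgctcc
TXNRD1, higher, chr12:104215660-104215708, + strand: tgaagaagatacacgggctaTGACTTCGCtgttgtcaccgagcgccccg
ME1, not called, chr6:83431160-83431208, - strand: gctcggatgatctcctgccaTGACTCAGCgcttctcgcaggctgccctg
MAFF, lower, chr22:38201852-38201900, + strand: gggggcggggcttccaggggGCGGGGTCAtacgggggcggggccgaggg
GLO1, lower, AP-1 element, chr6:38703215-38703261, - strand: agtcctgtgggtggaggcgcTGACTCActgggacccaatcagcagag
BACH1, lower, AP-1 element, chr21:29298854-29298900, + strand: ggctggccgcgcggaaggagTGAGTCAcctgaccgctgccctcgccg

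The motif began 66 bases before the start in GSTP1, 34 in GCLM and 31 in KEAP1. GCLM and KEAP1 thus carry the same 9 letters on the reverse strand at a like distance, and both rose. GSTP1 and ME1 carry the same 9 letters on the forward strand, and of these GSTP1 rose whereas ME1 was not called. GLO1 has the 7 AP-1 letters 96 bases before its start and BACH1 has them 48 bases before. The AP-1 letters also lie within the matches shown for GSTP1, which rose, and ME1, which was not called. OSGIN1, not called and not shown, has them 97 bases before its start. KEAP1 holds another match to the first motif 54 bases before its start.

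Of the 9 members that make or use glutathione, 8 were higher (88.9%) and none was lower, with a median log2 fold change of 0.30. Among genes with a count of at least 100, 33.4% were higher and 27.9% lower. Of the 28 other glutathione genes described further below, 17.9% were higher and 28.6% lower, so the pattern is stated for these 9 members. Glutathione is made by glutamate-cysteine ligase, of which GCLC is the catalytic and GCLM the modifier subunit, and then by GSS. GCLC (chromosome 6, 53497341 to 53616970) went from 989 to 1433, with a log2 fold change of 0.53 and a standard error of 0.07 (adjusted p = 5.0e-14, DESeq2). Its level with DOX was 145% of vehicle (132% to 159%). GCLM reached 122% (111% to 135%). GSS reached 114% (104% to 124%), with an adjusted p of 0.014 from DESeq2. The catalytic subunit gene therefore rose more than GSS, with intervals that do not overlap, while those of GCLC and GCLM do.

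GSR, glutathione reductase, restores the reduced form at the cost of NADPH. It went from 2770 to 4272 (chromosome 8, 30678066 to 30727846) with a log2 fold change of 0.63, a standard error of 0.05 and an adjusted p of 1.5e-32 (DESeq2). Of the peroxidases that spend glutathione or act on peroxide in the secretory pathway, GPX8 of the endoplasmic reticulum (chromosome 5, 55160167 to 55167297) rose most, from 2491 to 4180. Its log2 fold change was 0.75 with a standard error of 0.06 (adjusted p = 7.7e-30, DESeq2). GPX1, the cytosolic enzyme, reached 123% of vehicle (113% to 134%). GPX4, which reduces lipid peroxides in membranes, reached 111% (102% to 120%), with an adjusted p of 0.0409 from DESeq2 that became 0.0508 when the adjustment covered all genes with no filter and 0.119 when fold changes were centred on the median of expressed genes. GSTP1 (chromosome 11, 67583742 to 67586656), a transferase that conjugates glutathione to electrophiles, went from 3212 to 5214. That is a log2 fold change of 0.70 with a standard error of 0.06 (adjusted p = 6.9e-30, DESeq2). GSTM3, another transferase, had a level of 112% (101% to 124%) and was not called (adjusted p = 0.074, DESeq2).

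The thioredoxin system held both a large decrease and several small increases. TXNIP, which binds thioredoxin and blocks it and is also known to curb glucose uptake (chromosome 1, 145992435 to 145996579), fell from 8466 to 3270. Its log2 fold change was -1.37 with a standard error of 0.05 (adjusted p = 2.1e-171, DESeq2). The DOX level was 38.6% of vehicle (36.1% to 41.3%). The enzymes moved the other way. TXN, cytosolic thioredoxin, reached 111% (102% to 121%) with an adjusted p of 0.0405 from DESeq2, which became 0.0502 over all genes with no filter and 0.116 with centring. TXNRD1, its reductase, reached 114% (107% to 122%). SRXN1, sulfiredoxin, which repairs overoxidized peroxiredoxins, reached 135% (125% to 147%). In mitochondria, TXNRD2 (chromosome 22, 19875517 to 19941820) went from 203 to 295. Its log2 fold change was 0.54 with a standard error of 0.13 (adjusted p = 0.00013, DESeq2), the widest error among members that were called. TXN2, mitochondrial thioredoxin, had a level of 106% (96.9% to 116%) and was not called.

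PRDX1 showed the largest change of all 44 genes. Peroxiredoxins are abundant enzymes that reduce hydrogen peroxide with electrons from thioredoxin. PRDX1 (chromosome 1, 45510914 to 45542732) went from 7190 with vehicle to 22070 with DOX, 3.07-fold (2.87 to 3.28). The log2 fold change was 1.62 with a standard error of 0.05 and an adjusted p of 1.1e-232 (DESeq2). Of its transcript, 38.5% of the bases lie under exons of MMACHC on the opposite strand, and MMACHC itself had a mean normalized count of 416 and a log2 fold change of 0.19 (adjusted p = 0.123, DESeq2). PRDX2, the other main cytosolic form (chromosome 19, 12796820 to 12801800), went from 2347 to 3335, with a log2 fold change of 0.51 and a standard error of 0.07 (adjusted p = 1.4e-13, DESeq2). PRDX3, of mitochondria, reached 135% of vehicle (124% to 147%). PRDX6, which uses glutathione, reached 112% (104% to 120%). PRDX4, of the endoplasmic reticulum, and PRDX5, of mitochondria and peroxisomes, were not called, at 107% (98.6% to 115%) and 98.5% (91.2% to 106%). The interval of PRDX1 lay above those of the other 5.

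**Figure D3:**
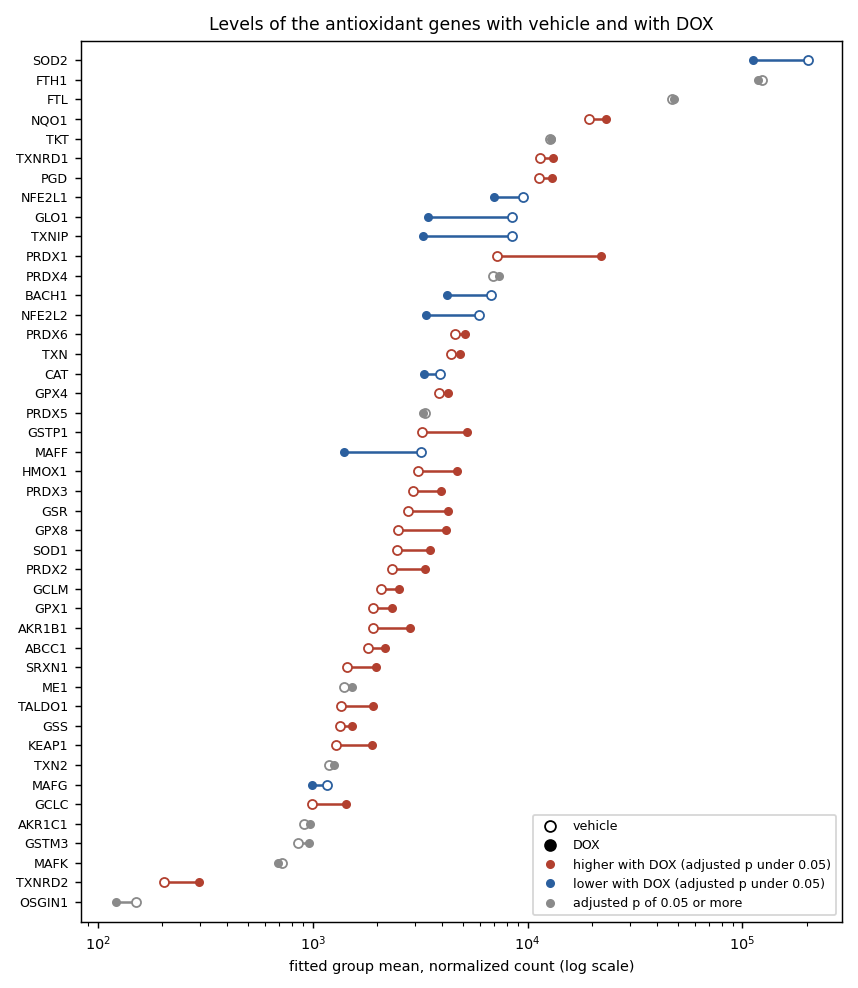
Fitted group mean (normalized count, log axis, not scaled for transcript length) with vehicle (open circles) and DOX (filled circles) for each of the 44 genes, ordered by the vehicle level and coloured by call. PRDX1 moves from 7190 to 22070, past TXNIP, GLO1 and NFE2L1, which all move down, while FTH1 and FTL lie at 117809 and 48266 with DOX, close to their vehicle levels.

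Of the superoxide dismutases, the cytosolic and the mitochondrial enzyme genes moved in opposite directions. SOD1 (chromosome 21, 31659666 to 31668931) rose from 2474 to 3503, with a log2 fold change of 0.50, a standard error of 0.06 and an adjusted p of 1.4e-18 (DESeq2). SOD2, also known as a target of NF-κB (chromosome 6, 159669069 to 159762529), fell from 201359 to 111734. Its log2 fold change was -0.85 with a standard error of 0.05 (adjusted p = 2.0e-73, DESeq2), which left 55.5% of vehicle (52.1% to 59.1%). SOD2 had the highest mean normalized count of the 44 genes, at 156547, and ranked 4 among them once counts were divided by transcript length. The transcript used for SOD2 has 14167 bases, and the rank depends on that length. CAT, catalase of the peroxisome, fell to 84.1% (78.2% to 90.3%).

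Genes that supply NADPH changed little, apart from TALDO1. The pentose phosphate pathway yields NADPH, in part through PGD, and transaldolase (TALDO1) and transketolase (TKT) recycle its sugars. TALDO1 reached 141% of vehicle (130% to 154%) and PGD 115% (109% to 123%). TKT had a level of 101% (94.1% to 108%) and ME1, cytosolic malic enzyme, one of 109% (99.5% to 120%), and neither was called. The log2 fold change of TKT was 0.01 and turned to -0.019 with centring.

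Among enzymes of quinones and carbonyls, GLO1 went against the rest. Glyoxalase 1 converts methylglyoxal, a by-product of glycolysis, with glutathione. GLO1 (chromosome 6, 38675925 to 38703145) fell from 8489 to 3433, with a log2 fold change of -1.31, a standard error of 0.05 and an adjusted p of 2.4e-130 (DESeq2). The level that remained was 40.4% of vehicle (37.6% to 43.5%). AKR1B1, aldose reductase (chromosome 7, 134442356 to 134459284), rose from 1901 to 2841, with a log2 fold change of 0.58 and a standard error of 0.06 (adjusted p = 1.8e-19, DESeq2). NQO1, the quinone reductase often read as a marker of NRF2 activity, reached 120% (113% to 129%) from a vehicle level of 19332. ABCC1, which exports glutathione conjugates, reached 119% (110% to 129%). AKR1C1 was not called at 106% (95.5% to 118%), and its reads can be hard to tell from those of AKR1C2 and AKR1C3, which are similar in sequence.

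Heme oxygenase rose while the ferritins did not pass the test. HMOX1, which degrades heme and is repressed by BACH1 (chromosome 22, 35380361 to 35394214), went from 3092 to 4711. Its log2 fold change was 0.61 with a standard error of 0.06 (adjusted p = 1.4e-23, DESeq2). FTH1 and FTL, which store iron, had levels of 95.8% (89.6% to 102%) and 102% (94.7% to 110%). Both ferritin genes have processed pseudogenes that can share reads. OSGIN1, an NRF2-induced growth regulator, was the least expressed member, from 151 to 121, with a level of 80.3% (64.3% to 100%) and no call (adjusted p = 0.104, DESeq2).

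Per kilobase of the MANE Select transcript, the members spanned a wide range of mean normalized counts. FTH1 led with 100074, before FTL with 54826, PRDX1 with 15481, SOD2 with 11050 and NQO1 with 8449. At the low end were TXNRD2 with 128 and OSGIN1 with 70.7, and the median was 1826. The 44 genes held 1.90% of the summed mean normalized count of all genes. Exons of another gene cover more than 20% of the transcript in 7 members, SRXN1 (90.7%) and GPX1 (63.6%) on the same strand and FTH1 (73.2%), PRDX1 (38.5%), PRDX2 (26.7%), MAFK (23.9%) and NQO1 (22.8%) on the opposite strand. How reads there were assigned is not given in the sources used here.

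A second list held 94 other genes of the same pathways. Of these, 89 were listed, 38 were higher with DOX, 19 were lower and 32 were not called or had no adjusted p, with a median log2 fold change of 0.18. The shares of the 89 genes were 42.7% higher and 21.3% lower, beside 33.4% and 27.9% of the genes with a count of at least 100. Only 77 of the 89 reached that count, so the sets are not fully alike. Over all genes with an adjusted p the shares were 24.3% and 22.5%. Of the 10 other regulators, 6 were higher and 3 were lower, with a median log2 fold change of 0.34, beside 1 higher and 5 lower of the 7 regulators among the 44 genes. The genes of the ubiquitin ligase that KEAP1 serves rose. CUL3 reached 159% of vehicle (147% to 173%) and RBX1 166% (148% to 187%), so KEAP1, CUL3 and RBX1 were all higher. Among the 6 genes of NRF2-like and BACH factors (NFE2, NFE2L1, NFE2L2, NFE2L3, BACH1 and BACH2), 4 were lower, 1 was higher and 1 was not called. BACH2, the second BACH repressor, was left at 47.3% (38.1% to 58.8%), and NFE2L3 rose to 138% (119% to 159%). SQSTM1, an autophagy receptor that binds KEAP1, rose to 126% (118% to 135%). Exons of MRNIP on the opposite strand cover 55.7% of the SQSTM1 transcript.

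Of the 20 other genes listed for carbonyl and quinone removal and for export, 12 were higher (60%) and 3 were lower (15%). The shares among genes with a count of at least 100 were 33.4% and 27.9%. ALDH3A1, an aldehyde dehydrogenase, had the largest increase of the second list among genes with a count of at least 100, to 290% of vehicle (222% to 379%) on a mean normalized count of 112. CBR3 and CBR1, carbonyl reductases, reached 198% (175% to 223%) and 182% (167% to 198%), whereas CBR4 fell to 72.2% (62.9% to 82.9%). Exons of other genes cover 71.1% of the CBR3 transcript on the opposite strand. For CBR1 they cover 31.5% on each strand. ALDH3A2, which oxidizes fatty aldehydes, reached 172% (160% to 186%). HAGH, the hydrolase that follows GLO1 in the glyoxalase pathway, fell to 80.6% (69.0% to 94.0%). Of 7 listed genes of heme and iron, 4 were higher (57.1%) and none lower. FECH, which inserts iron into heme, reached 186% (166% to 208%). HMOX2, the constitutive heme oxygenase, reached 164% (148% to 181%). SLC48A1, a heme transporter, and TFRC, the transferrin receptor, reached 168% (145% to 196%) and 153% (143% to 164%).

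Of the 11 other NADPH genes, 5 were higher (45.5%) and 2 were lower (18.2%). Among genes with a count of at least 100 the shares were 33.4% and 27.9%. Of the other glutathione genes, 28 were listed and 20 had a count of at least 100. Of the 28, 5 were higher (17.9%) and 8 were lower (28.6%). The share of lower genes was thus near the 27.9% above. SLC7A11, the cystine importer that feeds glutathione synthesis, fell to 56.4% (46.3% to 68.6%), in contrast to GCLC and GCLM. CHAC1, which degrades glutathione, fell to 54.6% (46.1% to 64.6%) and OPLAH, of the same cycle, to 66.0% (55.0% to 79.3%). SESN2, a stress-induced sestrin, had the largest decrease among genes of the second list with a count of at least 100, to 32.9% (29.9% to 36.2%), whereas SESN1 and SESN3 rose to 126% (107% to 149%) and 162% (140% to 188%). SLC7A11, CHAC1 and SESN2 are also known as targets of the amino acid stress factor ATF4. Of the other thioredoxin and peroxide genes, 6 were higher (46.2%) and 3 lower (23.1%) of 13 listed.

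**Figure D4:**
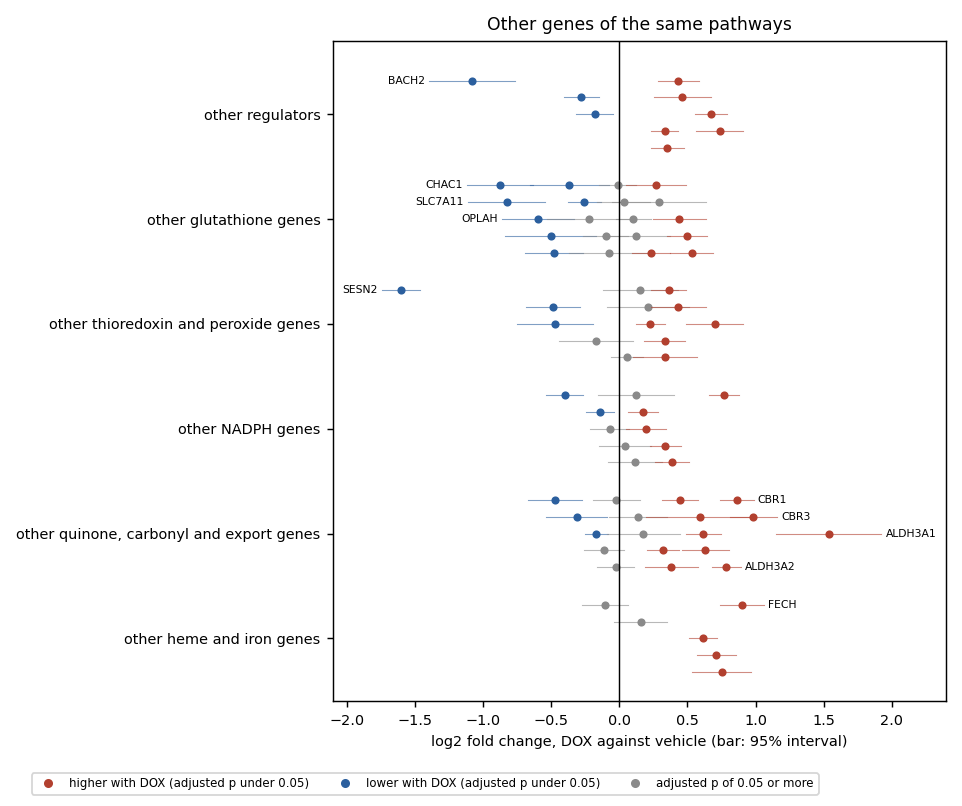
Log2 fold change, DOX over vehicle (points) with 95% intervals (bars) for those genes of the second list whose mean normalized count reached 100, in 6 classes and coloured by call. SESN2 and BACH2 lie beyond -1, ALDH3A1 lies beyond 1, and the names mark the 5 strongest increases and 5 strongest decreases.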

How the data were processed

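The authors isolated RNA from triplicate cultures of BT-549/tet-WDR5shRNA cells, prepared stranded poly(A) libraries, aligned reads to GRCh38 with STAR and compared the groups with DESeq2. Versions, the gene counter and its strand setting are not given in the sources used here. The labels name a column kit for RNA where the paper names Trizol. The deposited table holds the authors' own comparison, and every fold change and p-value printed comes from it. Its normalized counts, a signal averaged by the authors over 6 libraries, are not scaled for length. Fold changes and errors are log2 values as deposited. The authors' Wald statistic is a score, the estimate over its error. The p-value and its Benjamini-Hochberg adjustment were deposited by the authors, the latter for 15954 of 19792 genes. Statistics and adjusted p-values were recomputed and matched to within 1.6e-13.

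Computed here were intervals (estimate plus and minus 1.96 standard errors) and levels as 2 raised to the log2 fold change. Group levels took the deposited fold as the ratio of the group means. Counts, motif matches and alternatives were also computed here. Simulated data tested only the calls, the null hypothesis of at most 0.5 and the fit of the prior used for shrinkage. Full statistics are given for members with an adjusted p under 0.05 and a log2 fold change of at least 0.5, and the second list names its 5 largest changes each way at a count of at least 100. Its other genes named, from CUL3 to SESN3, were chosen after their values were seen. Members and lists were chosen with earlier results of these data known. The second list's GPX2, GSTT2B, SOD3, UGT1A6 and FTMT were not analysed here. Positions and transcript lengths came from GENCODE 44 on GRCh38. Scripts ran under Python 3.11.15 with pandas 2.3.3, scipy 1.17.1, numpy 2.4.6 and matplotlib 3.10.9.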

Additional observations from a re-analysis of the deposited data

How the results depend on the processing

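No paired analysis was possible because the values of single cultures were not analysed here, and leaving out each culture in turn was not run for the same reason. Adjusting over all genes with no filter, requiring a mean count of 50, an adjusted p under 0.01 and centring on the median log2 fold change of expressed genes (0.03) each left 9 members lower and between 21 and 24 higher. GPX4 and TXN lost their calls with no filter, at an adjusted p under 0.01 and with centring, and GSS at an adjusted p under 0.01. TKT, which was not called, turned to a log2 fold change of -0.019 with centring. Against a null hypothesis of a log2 fold change of at most 0.5 in size, 6 members were lower (NFE2L2, BACH1, MAFF, TXNIP, SOD2 and GLO1) and 3 were higher (PRDX1, GPX8 and GSTP1), while 2 genes of the second list were lower and 6 were higher. Shrinkage by a normal prior moved the log2 fold change of WDR5 to -2.78 and that of each of the 44 members by less than its standard error. Such shrinkage multiplies each estimate by a positive factor, so it cannot change a direction. The widest standard errors among the members were those of OSGIN1 and TXNRD2, 0.16 and 0.13 on the log2 scale. These genes also had the lowest mean normalized counts, 136 and 249, and the part that depth played was not tested.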

Other observations

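Genes of selenoproteins, which carry selenocysteine and include GPX1, GPX4, TXNRD1 and TXNRD2, were looked at after the values were seen. Of 20 such genes, 7 were higher with DOX, 5 were lower and 8 were not called, with a median log2 fold change of 0.03. The shares, 35.0% higher and 25.0% lower, lay near those of expressed genes (33.4% and 27.9%). DIO2, a deiodinase that activates thyroid hormone, fell to 49.6% of vehicle (41.4% to 59.4%). SEPHS2, which makes the selenium donor and is itself a selenoprotein, fell to 70.3% (65.2% to 75.7%). SELENOP, a secreted selenium carrier, reached 206% (131% to 324%) on a mean normalized count of 32.8. Among 5 other genes of selenocysteine synthesis and insertion, 2 were higher and 2 were lower. SEPSECS, the enzyme of the last step of synthesis, fell to 40.5% (35.5% to 46.1%), and SECISBP2, which binds the insertion element in selenoprotein mRNAs, fell to 71.4% (64.3% to 79.4%). PSTK, the kinase of the preceding step, rose to 155% (112% to 215%) on a mean normalized count of 72.3.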
